A study of Mus musculus with 8 samples.

Results

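Pancreata of mice that lack *Pfkfb3* in the pancreatic epithelium were compared 24 hours after severe acute pancreatitis was induced and after saline alone. This comparison used 4 of the 8 RNA-Seq libraries of the series, 2 from FAEE-SAP pancreata and 2 from saline pancreata, all from *Pfkfb3* cKO mice. It asked how the transcriptome of the cKO pancreas responded to FAEE-SAP, and the same contrast in 4 WT libraries was used only to show where the cKO response differed. FAEE-SAP is induced by intraperitoneal palmitoleic acid (POA) together with ethanol, from which fatty acid ethyl esters form, and the control mice received saline. Both cKO groups carried the same deletion, *Pfkfb3* fl/fl with Pdx1-Cre, in which exons 2 and 3 are flanked by loxP sites. Pdx1-Cre acts in the progenitors of acinar, ductal and endocrine cells, so immune, vascular and stromal cells of the organ keep an intact *Pfkfb3*. All mice were male and 8 weeks old. The floxed line was made on C57BL/6J, whereas the study's methods give the WT mice as bought, so genotype and source of the mice cannot be told apart. The submitters state 2 biological replicates per group, but how many mice each library stands for was not given in the sources used here.

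The exocrine pancreas consists mainly of acinar cells, which store digestive proenzymes in zymogen granules and release them into the ducts. In acute pancreatitis the proenzymes are activated inside the gland, acinar cells are injured, and neutrophils and monocytes enter the tissue. Surviving acinar cells can lower their enzyme transcripts, take on duct-like keratins and secrete Reg proteins, small C-type lectins that are known as markers of pancreatic stress. PFKFB3 makes fructose-2,6-bisphosphate, the main allosteric activator of glycolysis.

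The cKO libraries held 27.69 to 37.57 M reads (M, 1e6) and the WT libraries 22.84 to 32.59 M reads, as recovered from the deposited RPKM values (reads per kilobase of transcript and per M reads). A single read on a 2-kb transcript was worth 0.0133 to 0.0181 RPKM in the cKO libraries. All 6 acinar marker genes were found at high level in every cKO library, and their summed level, after each library was scaled to the others, was 115325 and 104779 in saline and 57002 and 55236 in FAEE-SAP. One library stood apart. The saline replicate 1 library held intestinal transcripts, with *Fabp2* at 8.89 and *Apoa4* at 10.7 scaled RPKM, while *Fabp2* was at 0 in the other 7 libraries. The calls were therefore also made without that library. T cell markers summed to 2.88 and 2.51 in saline and 6.85 and 2.42 in FAEE-SAP, and B and plasma cell markers to 53.2 and 53.6 against 96.9 and 33.1, so FAEE-SAP replicate 1 held more lymphocyte transcripts than its partner. In bulk tissue, fewer cells of a type and less RNA per cell cannot be told apart.

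The deletion itself could not be read from gene-level values, since *Pfkfb3* transcripts that lack exons 2 and 3 are still counted under the gene. *Pfkfb3* stood at 0.703 and 1.67 scaled RPKM in saline and 1.44 and 2.26 in FAEE-SAP. The log2 fold change was 0.68 ± 0.45 (SE), with an adjusted *P* of 0.644 by limma. On a scale common to all 8 libraries the WT values were 1.70 and 1.69 in saline and 1.85 and 3.21 in FAEE-SAP, and these overlapped the cKO values of 0.880 and 2.10 and of 1.74 and 2.82. Thus the label of the deletion was not checked by these data.

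A total of 9423 genes reached 0.5 RPKM in at least 2 of the 4 cKO libraries and were tested with limma on log2(scaled RPKM + 0.1). A gene was called at a Benjamini-Hochberg adjusted *P* below 0.05 with at least a 2-fold change. With these criteria 5 genes rose (0.0531% of those tested) and 0 fell. The 5 were *Reg3a*, *Reg3b*, *Reg2*, *Lrg1* and *Car9*. At an unadjusted *P* below 0.05 with at least a 2-fold change, 207 genes were higher (2.2%) and 73 lower (0.775%) in FAEE-SAP. The study's methods state a 2-fold change with *P* below 0.05 and do not say whether *P* was adjusted. At an unadjusted *P* below 0.05 alone there were 888 genes (9.42%). The 2 FAEE-SAP libraries lay on one side of both saline libraries for 43.2% of all genes tested, 21.8% above and 21.4% below. Of the genes tested 908 reached the 0.5 RPKM level only through the FAEE-SAP libraries, and 108 of the 207 higher genes were among them. As deposited the 908 had to lie above saline, but after scaling they could lie below it. In the calcium list 17 of 31 genes lay below 0, and 15 of 29 with such genes left out. Of the other 8515 genes 99 were higher and 73 lower, with a median of −0.05. Through the saline libraries alone 8 genes reached the level, and 7 of these were among the 73 lower genes. For the lists below, the counts and medians therefore leave such genes out where that is stated. Of the 35 lists with a median of at least 0.1 in size, 30 moved by over 1.5 times or across 0 when 1 library was left out, and the values are given for those the text turns on. The median log2 fold change over all genes was −0.01 and the median SE 0.22. A design with 2 libraries per group allows no exact permutation *P* below 0.333 for a single gene, and the *P* values given here rest on the spread limma shared across genes.

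Scaling decided the balance of higher and lower genes. In the values as deposited, the median of all genes lay at 0.57, and the genes with an unadjusted *P* below 0.05 and a 2-fold change were 1105 higher and 9 lower. Transcripts of 33 digestive enzyme genes took 87.5% and 87.9% of the summed RPKM in cKO saline and 80.1% and 79.9% in cKO FAEE-SAP, which leaves a larger share of each library's reads to all other genes in the FAEE-SAP libraries. As deposited, 20 of the 22 gene lists with a median below 0 had a median above 0, the exceptions being the 2 lists of digestive enzymes. All fold changes below are from scaled values, and for a single gene the deposited scale is named where it turns a direction.

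**Figure D1:**
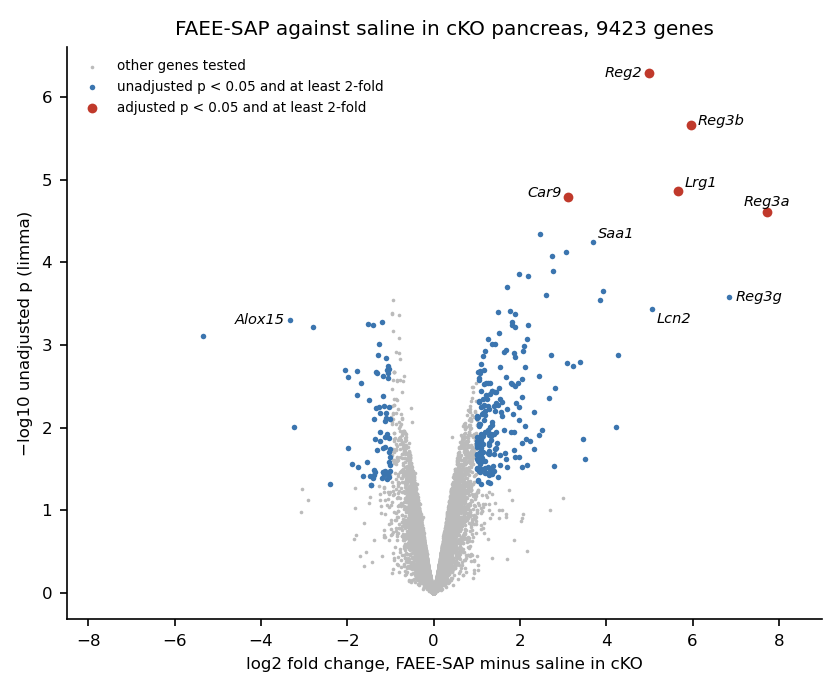
Log2 fold change of FAEE-SAP over saline in cKO pancreas (horizontal axis) against −log10 of the unadjusted limma *P* value (vertical axis) for the 9423 genes tested, 1 point per gene. The 5 called genes lie at the upper right, with *Reg3a* farthest out at 7.73, and no gene on the left passed adjustment.

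The largest changes were in the Reg family, whose genes lie side by side on chromosome 6 (GRCm38). *Reg3a*, which encodes a secreted antimicrobial lectin, stood at 8.14 and 3.29 scaled RPKM in saline and at 925 and 1359 in FAEE-SAP. Its log2 fold change was 7.73 ± 0.48 (SE), which is 212-fold, with an adjusted *P* of 0.0456. *Reg3b*, known as pancreatitis-associated protein, was at 106 and 82.8 in saline and at 5057 and 6738 in FAEE-SAP, a change of 5.96 ± 0.22 (62.3-fold, adjusted *P* = 0.0102). *Reg2*, an acinar lectin close in sequence to *Reg1*, was at 275 and 262 in saline and at 8054 and 8920 in FAEE-SAP, a change of 4.98 ± 0.14 (31.6-fold, adjusted *P* = 0.00481). In all 3 genes the FAEE-SAP libraries were close to each other and far above saline.

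Other members of the family showed the same order of libraries without passing adjustment. *Reg3g*, a lectin that binds Gram-positive bacteria, was at 7.16 and 1.59 in saline and 362 and 451 in FAEE-SAP. Its log2 fold change of 6.85 was the second largest of the family, but the saline libraries differed from each other and the SE was 0.71 (adjusted *P* = 0.151). With saline replicate 1 left out the change was 7.91 and the adjusted *P* 0.033. *Reg3d* was at 157 and 143 in saline and 844 and 1204 in FAEE-SAP, a change of 2.75 with an adjusted *P* of 0.0864, which placed it just outside the threshold. *Reg1*, which is abundant in the resting acinar cell, was at 5868 and 6115 in saline and 8079.8 and 8120.5 in FAEE-SAP, a change of 0.44 (adjusted *P* = 0.430). *Tff2*, a trefoil peptide of mucous secretions, ran the other way, with 953 and 766 in saline and 466 and 413 in FAEE-SAP. Its log2 fold change was −0.96 (adjusted *P* = 0.290).

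The 6 Reg genes fall within 1 cluster. *Reg3b* lies at chr6:78370657-78373466 on the plus strand, *Reg3d* at chr6:78375874-78378865 on the minus strand and *Reg3a* at chr6:78380709-78383827 on the plus strand. *Reg2* follows at chr6:78395623-78408106 and *Reg1* at chr6:78422711-78428667, both on the plus strand, and *Reg3g* at chr6:78466269-78468872 on the minus strand. Reads could in principle be split between such related genes, but 0 of the 50-base stretches of their annotated transcripts were shared between any of the 6. The cluster thus held 3 genes that rose and 3 that did not pass the test, and their start regions were therefore read side by side. The stretches of 80 bases below lie upstream of the starts in the RefSeq promoter windows (GRCm38.p6), outside annotated exons, and are written on the strand of the gene. For *Reg3b*, *Reg2* and *Reg1* the RefSeq start lies inside the longer GENCODE span given above. Capitals mark the letters TGCCAA and, in *Reg3b*, also a match to TTCNNNGAA, the core of a STAT site.
Reg3b, chr6:78370742-78370821, plus strand: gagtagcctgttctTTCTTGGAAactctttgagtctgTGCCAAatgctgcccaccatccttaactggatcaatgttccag
Reg3a, chr6:78380616-78380695, plus strand: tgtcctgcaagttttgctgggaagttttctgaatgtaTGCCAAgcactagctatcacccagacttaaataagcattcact
Reg3g, chr6:78468936-78469015, minus strand: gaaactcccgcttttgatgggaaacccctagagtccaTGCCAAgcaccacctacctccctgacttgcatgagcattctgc
Reg3d, chr6:78378906-78378985, minus strand: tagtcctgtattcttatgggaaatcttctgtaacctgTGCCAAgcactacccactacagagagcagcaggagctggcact
Reg2, chr6:78405010-78405089, plus strand: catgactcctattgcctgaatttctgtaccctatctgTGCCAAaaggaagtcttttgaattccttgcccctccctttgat
Reg1, chr6:78425743-78425822, plus strand: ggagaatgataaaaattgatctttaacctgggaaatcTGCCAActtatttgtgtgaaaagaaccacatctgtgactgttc

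All 6 windows held TGCCAA on the strand of the gene within 250 bases of the start, as did 6.30% of the 32817 windows in the table (12.3% on either strand). The letters were chosen after the sequences had been read, and *Reg1* held them as well. They began 106 bases before the start in *Reg3b*, 56 in *Reg3a*, 104 in *Reg3g*, 83 in *Reg3d*, 108 in *Reg2* and 203 in *Reg1*. TTCNNNGAA, which reads the same on both strands, was found in the windows of *Reg3b* and *Reg3d* and in 7.01% of all windows. A match to such letters describes the sequence and does not show a bound site.

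**Figure D2:**
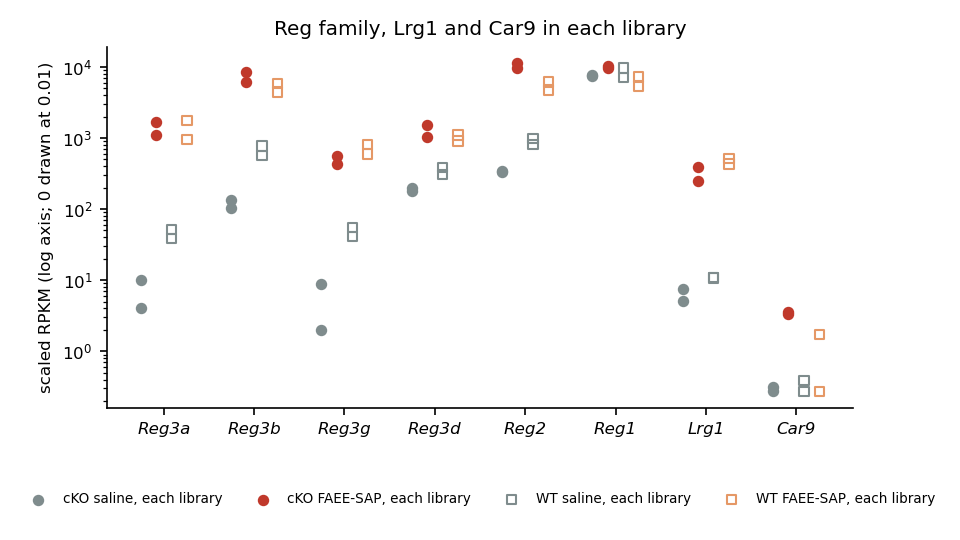
Levels of 8 genes in each of the 8 libraries, as RPKM on a scale common to all libraries (log axis), with 1 point per library and the cKO and WT groups side by side. *Reg3b* in cKO moves from 132 and 104 in saline to 6086 and 8433 in FAEE-SAP, and in WT from 771 and 567 to 5881 and 4432.

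The 4 most changed Reg genes stood lower in cKO than in WT saline pancreas, a contrast that was not tested here and in which genotype and source of the mice cannot be told apart. On the common scale *Reg3b* stood at 132 and 104 in cKO saline against 771 and 567 in WT saline, and at 6086 and 8433 against 5881 and 4432 in FAEE-SAP. *Reg2* was at 344 and 329 in cKO saline against 971 and 807 in WT saline, and at 9691 and 11163 against 6138 and 4739 in FAEE-SAP. *Reg3a* was at 10.2 and 4.12 against 51.4 and 38.7 in saline, and *Reg3g* at 8.96 and 1.99 against 40.6 and 55.3. The WT fold changes were smaller, with log2 values of 2.94 for *Reg3b* and 2.60 for *Reg2*. The difference between the genotypes, cKO minus WT, was 2.34 ± 0.25 (SE) for *Reg2*, with an adjusted *P* of 0.0413 over 11133 genes. It was 2.98 ± 0.35 for *Reg3b* (adjusted *P* = 0.0567), 2.85 for *Reg3a* (adjusted *P* = 0.202) and 2.96 for *Reg3g* (adjusted *P* = 0.274). Of the 9 mucin, trefoil and Reg genes tested for this difference 1, *Fut2*, entered only through WT FAEE-SAP, and the other 8 had an unadjusted *P* below 0.05 with the cKO change higher. For all genes the share with the cKO change higher was 6.17% and that with it lower 6.39%. With the values as deposited the difference was in the higher direction at an unadjusted *P* below 0.05 for 5 of the 9 and in the lower for 1, while 8 lay above 0. In cKO alone 8 of the 17 listed genes reached the level for testing, 5 of them higher at an unadjusted *P* below 0.05 with a 2-fold change, and their median log2 fold change was 3.86.

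*Lrg1* and *Car9* were the other called genes. *Lrg1* (chromosome 17, 56119678 to 56122001) encodes leucine-rich alpha-2-glycoprotein, a secreted acute-phase protein. It was at 4.06 and 6.08 scaled RPKM in saline and at 208 and 315 in FAEE-SAP, a log2 fold change of 5.66 ± 0.31 (50.4-fold, adjusted *P* = 0.0386). The WT change was 5.41, and the difference of 0.22 ± 0.38 (SE) had an unadjusted *P* of 0.591. *Car9* (chromosome 4, 43506966 to 43513729) encodes carbonic anhydrase 9, an enzyme of the cell surface and a known target of hypoxia-inducible factor. It was at 0.222 and 0.249 in saline and 2.75 and 2.87 in FAEE-SAP, a change of 3.12 ± 0.18 (8.69-fold, adjusted *P* = 0.0386). It reached the level for testing only through FAEE-SAP, so its direction in the values as deposited was set by that filter. In WT one FAEE-SAP library reached 1.72 and the other 0.274, beside 0.273 and 0.385 in saline, and the WT change of 0.97 did not pass the test (adjusted *P* = 0.451). The genotype difference of 2.21 for *Car9* had an adjusted *P* of 0.377. No other of the 18 hypoxia-inducible genes tested moved past the unadjusted criterion, and the median was −0.11 without 2, *Car9* included, that entered only through FAEE-SAP.

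*Reg3a*, *Reg3b* and *Reg2* were also called without saline replicate 1, the library with intestinal transcripts, with log2 fold changes of 8.38, 6.14 and 5.02. With *Reg3g* they made up the 4 genes called there, and 276 genes were higher and 75 lower by the unadjusted criterion. *Lrg1* at 5.38 had an adjusted *P* of 0.137 there and *Car9* at 3.09 one of 0.220. No gene was called without FAEE-SAP replicate 2, where 629 genes had an unadjusted *P* below 0.05. These fits leave 1 library in a group and assume that it varied like the other group.

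Acute-phase genes encode plasma proteins induced by inflammation. Of 37 such genes 16 reached the level for testing in cKO, 2 of them only through FAEE-SAP. Of the other 14, 6 were higher (99 of all 8515 genes left in this way were) and 1 lower (73 were) by the unadjusted criterion. Their median was 0.60. Of the 6, 3 (*Lcn2*, *S100a8* and *S100a9*) are neutrophil markers too, and 3 (*Lrg1*, *Serpina3n* and *Itih4*) are not. The 5 defining neutrophil markers summed to 3.65 and 1.20 in saline and 19.6 and 12.2 in FAEE-SAP on the common scale, with 0 of them at 0 in both FAEE-SAP libraries, and their part in these values was not tested. In WT 25 were tested, 11 of them only through FAEE-SAP, and of the other 14, 9 were called higher (3.08% of all genes tested in WT were) and 0 lower. The genotype difference was tested in 25 genes, and 6 of these entered only through WT FAEE-SAP, where they were high. Among the other 19 the cKO change was the lower one at an unadjusted *P* below 0.05 for 11 and the higher for 1. Of all 10470 genes left in this way it was the lower one for 625 and the higher for 683. *Lcn2*, which encodes the siderophore-binding lipocalin 2, was at 0.715 and 1.0 in cKO saline and 18 and 54.9 in cKO FAEE-SAP, a change of 5.06 (adjusted *P* = 0.161). On the common scale it reached 21.7 and 68.7 in cKO and 258 and 259 in WT FAEE-SAP. The WT change was 8.00 and the genotype difference −2.92, with an unadjusted *P* of 0.00306 and an adjusted *P* of 0.202.

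*Saa1* and *Saa3* encode serum amyloid A proteins. *Saa1* was listed at 0 in both saline libraries and at 1.32 and 1.09 in FAEE-SAP (adjusted *P* = 0.0771), and it entered only through FAEE-SAP. *Saa3*, the form made outside the liver, was at 4.04 and 3.02 in saline and lower, at 0.784 and 1.30, in FAEE-SAP, a change of −1.69 (adjusted *P* = 0.269). In WT *Saa3* rose from 1.60 and 4.69 to 56.6 and 66.4 on the common scale, a change of 4.43. The genotype difference of −6.17 ± 0.67 (SE) was the largest among those that passed adjustment (adjusted *P* = 0.0413). *Cd14*, a co-receptor for endotoxin, was at 1.24 and 2.02 in saline and 2.0 and 2.19 in FAEE-SAP, a change of 0.38 where WT had 3.39 (difference −3.02, adjusted *P* = 0.0579). *Serpina3m*, a secreted protease inhibitor, was at 0.0595 and 0.311 in saline and 0.619 and 0.848 in FAEE-SAP, a change of 1.69 where WT had 6.0, and in cKO it too entered only through FAEE-SAP. Its relative *Serpina3n* was at 1.90 and 7.73 against 19.6 and 19.9, and *Hp*, haptoglobin, at 7.75 and 2.47 against 15.6 and 2.92, with overlapping groups.

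Most neutrophil genes were low in every cKO library. Only 6 of 23 neutrophil markers reached 0.5 RPKM in 2 of the 4 libraries. A gene that did so only through the FAEE-SAP libraries had to lie above saline as deposited, so no count over these 6 is given as a result. *S100a8* and *S100a9*, whose products form calprotectin, the main cytosolic protein of neutrophils, both lay above saline. *S100a8* was at 0.786 and 0.275 in saline and 3.65 and 2.10 in FAEE-SAP, and *S100a9* at 1.11 and 0.366 against 10.1 and 6.09. *Csf3r*, the receptor for granulocyte colony-stimulating factor, was at 0.170 and 0.169 against 0.877 and 0.448 and entered only through FAEE-SAP. *Retnlg*, a resistin-like neutrophil protein, was at 0.729 and 0.0628 against 1.14 and 0.784. On the common scale *S100a9* reached 12.1 and 7.62 in cKO FAEE-SAP and 33.1 and 29.2 in WT FAEE-SAP. For *S100a8* the cKO change of 2.32 was below the WT change of 5.88 by 3.46 (unadjusted *P* = 0.00102, adjusted *P* = 0.151). Of 15 neutrophil genes tested for the genotype difference 5 entered only through WT FAEE-SAP. Among the other 10 the cKO change was the lower one at an unadjusted *P* below 0.05 for 5 and the higher for 0. Of all 10470 genes left in this way it was the lower one for 625 and the higher for 683. *Fpr1*, the formyl peptide receptor of phagocytes, was below the level for testing in cKO, at 0.0967 and 0.109 in saline and 0.0785 and 0.125 in FAEE-SAP, values of a few reads. It was thus 1 of the genes that entered through WT FAEE-SAP. In WT it was listed at 0 in saline and stood at 2.64 and 2.01 in FAEE-SAP, and the genotype difference had an adjusted *P* of 0.038.

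**Figure D3:**
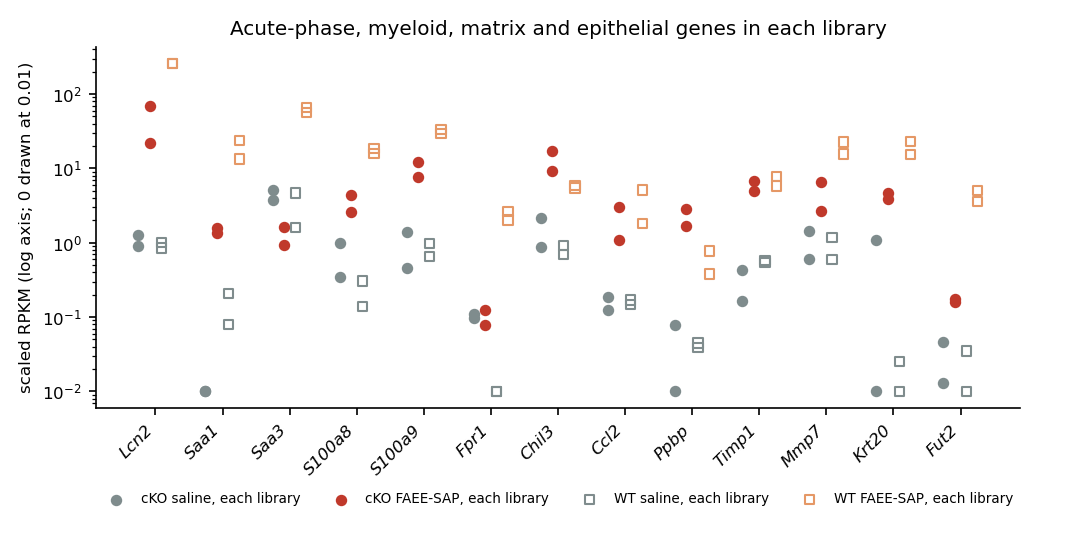
Levels of 13 inflammatory, matrix and epithelial genes in each of the 8 libraries, as RPKM on a scale common to all libraries (log axis, values of 0 drawn at 0.01), 1 point per library. *Lcn2* reaches 21.7 and 68.7 in cKO and 258 and 259 in WT FAEE-SAP, while *Chil3*, *Ccl2* and *Timp1* lie above saline in both genotypes.

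Of 29 macrophage and monocyte markers 24 were tested in cKO and 23 had a log2 fold change above 0 (48.5% of all genes did), 5 of which reached the level for testing only through FAEE-SAP. Of the other 19, 4 were higher (99 of all 8515 genes left in this way were) and 0 lower (73 were) by the unadjusted criterion. Their median was 0.72. Over all 24 the median was 0.84, and 0.55 without FAEE-SAP replicate 1. *Chil3*, a chitinase-like protein of alternatively activated macrophages, was at 0.710 and 1.71 in saline and 7.76 and 13.6 in FAEE-SAP, a change of 3.10 beside 2.70 in WT (adjusted *P* = 0.255 in cKO). *Mrc1*, the mannose receptor, was at 1.44 and 1.27 against 3.45 and 3.37, a change of 1.27 where WT had −0.04, and the difference of 1.29 had an unadjusted *P* of 0.0397. The scavenger receptor gene *Msr1* was at 0.408 and 0.283 against 1.60 and 0.898, and *Ccr2*, the receptor by which monocytes leave the marrow, at 0.571 and 0.203 against 1.39 and 0.837, and both entered only through FAEE-SAP. *Cd68*, a lysosomal glycoprotein of phagocytes, was at 2.09 and 2.07 against 5.04 and 4.45. *C1qa*, a complement subunit made by tissue macrophages, was at 7.67 and 9.32 against 16.8 and 13.8, a change of 0.84 where WT had −0.31 (difference 1.12, unadjusted *P* = 0.00469). *Csf1r* was at 2.54 and 2.75 against 5.40 and 3.63. *Adgre1*, which encodes the F4/80 antigen, showed no shift, with 1.49 and 1.28 in saline and 1.54 and 1.29 in FAEE-SAP. For 6 of 26 genes the cKO change was the higher one at an unadjusted *P* below 0.05 (6.17% of all genes), and for 2 the lower (6.39%). As deposited these were 0 and 2 of the 26. *Cd14*, described above, is in this list too, and its difference of −3.02 was among the lower ones. The 5 defining macrophage markers summed to 74.5 and 70.0 in saline and 95.1 and 79.6 in FAEE-SAP, and their part in these values was not tested.

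Among chemokines 15 of 35 were tested, 4 of them only through FAEE-SAP. Of the other 11, 3 were higher (99 of all 8515 genes left in this way were) and 0 lower (73 were) by the unadjusted criterion. The median over all 15 was 0.96, with 0.28 without FAEE-SAP replicate 1 and 1.34 without replicate 2. *Ccl2*, the monocyte attractant MCP1, was at 0.150 and 0.101 in saline and 2.50 and 0.861 in FAEE-SAP, a change of 2.82 beside 3.70 in WT. *Ccl9* was at 1.77 and 1.45 against 7.29 and 5.29. The next chemokines were chosen after their values were seen. *Cxcl14* was at 0.374 and 0.335 against 2.38 and 2.46, a change of 2.47 that lay just outside the threshold (adjusted *P* = 0.0705). *Ccl6* was at 7.71 and 4.93 against 26.3 and 17.7. *Ppbp* and *Pf4*, chemokines stored in platelets, were at 0.0629 and 0 against 2.34 and 1.32, and at 3.26 and 1.27 against 8.70 and 7.97. *Ccl2*, *Cxcl14* and *Ppbp* were among those that entered only through FAEE-SAP. Of 22 cytokine and receptor genes 3 entered in that way, and of the other 19, 2 were higher and 0 lower by the same criterion, with a median of 0.49. Over all 22 the median was 0.51, and 0.25 without FAEE-SAP replicate 1. Leaving out genes that entered only through WT FAEE-SAP, the difference from WT was in the lower direction at an unadjusted *P* below 0.05 for 5 of 26 cytokine genes and in the higher direction for 0. For chemokines it was lower for 2 of 19 and higher for 3. Of all 10470 genes left in this way it was lower for 625 and higher for 683.

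Some genes of matrix turnover lay above saline in both genotypes. *Timp1*, the tissue inhibitor of metalloproteinases, was at 0.345 and 0.129 in saline and 5.67 and 3.94 in FAEE-SAP, a change of 3.92 (adjusted *P* = 0.148) beside 3.41 in WT. *Mmp3*, stromelysin, was at 0.209 and 0.446 against 1.49 and 1.90. *Mmp7*, matrilysin of injured epithelium, was at 0.479 and 1.14 against 2.21 and 5.18, a change of 2.04 where WT had 4.35 (difference −2.28, unadjusted *P* = 0.0192). Of 16 matrix protease and plasminogen genes tested 6 entered only through FAEE-SAP, *Timp1* and *Mmp3* among them. Of the other 10, 1 was higher (99 of all 8515 genes left in this way were) and 0 lower (73 were) by the unadjusted criterion. Their median was 0.48. Of 28 fibroblast, stellate and matrix genes 6 entered in that way, and of the other 22, 1 was higher and 0 lower, with a median of 0.60. The median over all 28 was 0.44 without FAEE-SAP replicate 1 and 1.03 without replicate 2. The 2 main fibrillar collagens overlapped between the groups. *Col1a1* was at 1.95 and 0.948 in saline and 4.22 and 1.90 in FAEE-SAP, and *Col3a1* at 4.75 and 1.41 against 10.4 and 4.46. *Tnc*, a matrix protein of wound healing, was at 0.307 and 0.899 against 2.25 and 1.04. The 4 defining fibroblast and stellate markers summed to 54.1 and 55.6 in saline and 57.3 and 53.5 in FAEE-SAP, within the spread of the libraries.

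Digestive enzyme transcripts were lower in FAEE-SAP after scaling, by less than in WT. All 18 digestive proteases and all 14 tested lipase, amylase and nuclease genes had log2 fold changes below 0, the one nearest to 0 at −0.0037, beside 51.5% of all genes. The medians were −0.84 and −0.92. None of the 32 passed adjustment, and 3, *Pnlip*, *Cel* and *Amy2b*, passed the unadjusted criterion. *Pnlip*, pancreatic triglyceride lipase, was at 34609 and 30548 in saline and 15571 and 12966 in FAEE-SAP, a change of −1.19 ± 0.14 (adjusted *P* = 0.169). *Cel*, carboxyl ester lipase, which can also form fatty acid ethyl esters, was at 14167 and 10036 against 6235 and 4663. *Cpa1*, carboxypeptidase A1, was at 16574 and 17491 against 9740.3 and 9714. *Ctrb1*, a chymotrypsinogen, had the smallest change of the proteases, −0.31, with 72677 and 82655 in saline and 56377 and 69015 in FAEE-SAP. Several of these genes have near-identical copies, among them the trypsinogens and pancreatic amylases, so values of single paralogs are uncertain.

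The size of these changes, and the direction of some genes, rested on the scaling. In the values as deposited the medians were −0.22 for the proteases, with 13 of 18 below 0, and −0.29 for the other enzymes, with 12 of 14 below 0. After quantile normalization they were −0.29 and −0.12, with 13 of 18 and 9 of 14 below 0. *Ctrb1* turned to 0.31 as deposited and 0.16 after quantile normalization, and *Cpa1* to 0.08 after the latter. With the trimmed mean of M values both medians were unchanged. The values as deposited can be read without scaling as shares, and the enzyme share of 87.5% and 87.9% in saline against 80.1% and 79.9% in FAEE-SAP did not overlap. In WT it was 86.4% and 85.4% against 64.1% and 66.8%.

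**Figure D4:**
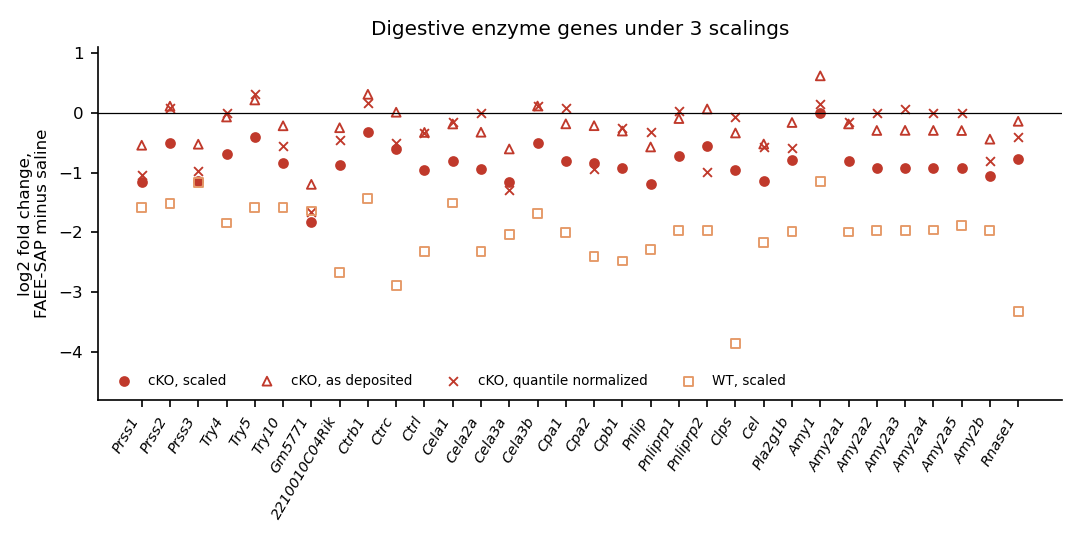
Log2 fold change of FAEE-SAP over saline (vertical axis) for 32 digestive enzyme genes, 1 gene per column, in cKO with scaled, as deposited and quantile-normalized values and in WT with scaled values. The scaled cKO points lie below 0, with medians of −0.84 and −0.92, above the WT points for most genes, and shift toward 0 in the other 2 versions.

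Set against WT, the enzyme genes had smaller changes in cKO. In WT all 18 proteases were called lower and 13 of 14 other enzymes (3.86% of all genes tested in WT were called lower), with medians of −1.77 and −1.97. The cKO change was the higher one, that is, nearer to 0, at an unadjusted *P* below 0.05 for 14 of 18 proteases and 12 of 14 other enzymes, and in the other direction for 0 of either. With the values as deposited these counts were 9 of 18 and 6 of 14, and after quantile normalization 5 of 18 and 3 of 14. *Clps*, which encodes the colipase that lets pancreatic lipase work in bile, passed adjustment. It was at 17268 and 18464 in cKO saline and 9212 and 9142 in cKO FAEE-SAP, a change of −0.96, whereas WT had −3.85. On the common scale the WT FAEE-SAP libraries stood at 1488 and 1313 and those of cKO at 11085 and 11441. The difference was 2.86 ± 0.18 (SE), with an adjusted *P* of 0.00722, the smallest of all genes. *Rnase1* was at 9367 and 9516 in cKO saline and 5343 and 5775 in cKO FAEE-SAP, a change of −0.77 where WT had −3.32 (difference 2.52, adjusted *P* = 0.202). For *Cela2a*, an elastase, the changes were −0.95 and −2.31 (adjusted *P* of the difference 0.0806).

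The remaining genes whose response differed between the genotypes after adjustment were *Gal*, *Tmed6*, *Igkv4-68* and *Fut2*. In all, 8 of 11133 genes did (0.0719%), and 1398 had an unadjusted *P* below 0.05 (12.6%). The cKO change was the higher one in 5 of the 8. With the values as deposited the median difference over all genes was −0.63, and 791 genes passed, 21 with the cKO change higher and 770 with it lower. *Gal*, which encodes the neuropeptide galanin, was at 58.1 and 60.2 in cKO saline and 31.3 and 25.6 in cKO FAEE-SAP, a change of −1.06 where WT had −3.54 (difference 2.44, adjusted *P* = 0.038). *Tmed6*, a cargo receptor of the early secretory pathway, was at 198 and 172 against 98.6 and 95.1, a change of −0.93 where WT had −2.87 (difference 1.91, adjusted *P* = 0.0413). *Fut2*, a fucosyltransferase of mucosal surfaces, stayed low in cKO, at 0.0468 and 0.0131 in saline and 0.161 and 0.173 in FAEE-SAP on the common scale, while WT FAEE-SAP stood at 3.59 and 4.99 (difference −4.17, adjusted *P* = 0.0413), and like *Fpr1* it entered only through WT FAEE-SAP. The immunoglobulin segment *Igkv4-68* was at 0.606 and 0.678 in cKO saline and 2.70 and 2.15 in cKO FAEE-SAP, a change of 1.76 where WT had −1.37 (difference 3.11, adjusted *P* = 0.0413). Segments of this kind are near-identical copies, so its reads may belong to others. Of the 8, *Clps* was called under 12 of 17 other settings, *Fpr1* and *Fut2* under 6 of 15 and the others under 5 or 6 of 17.

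The responses of both genotypes were set side by side over genes tested in each, and the 2 comparisons share no library. Genes that entered only through the group in which they were high, in either genotype, are left out here. In the values as deposited the filter set their direction. Of the other 95 genes higher in cKO by the unadjusted criterion 83 lay above 0 in WT (47.0% of the 8383 genes compared did) and 33 were called higher there (34.7% beside 2.23% of all). Their medians were 1.29 in cKO and 1.02 in WT. Of 59 lower genes 50 lay below 0 in WT (50.9% of 9306 genes did) and 31 were called lower (52.5% beside 4.16%), with medians of −1.18 and −1.45. Read from the other side, 187 genes were called higher in WT, 159 of them lay above 0 in cKO (44.1% of all did) and 33 passed the unadjusted criterion (17.6% beside 1.13%), with a median of 0.48 against 1.53 in WT. Of 387 called lower in WT 349 lay below 0 in cKO (51.4% did) and 31 passed (8.01% beside 0.634%), with a median of −0.50 against −1.59. Each set was chosen for its size in one genotype, so a smaller median in the other is partly set by the choice.

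Acinar transcription factors did not move as a list, with a median of 0.00 over 18 genes and 1 lower by the unadjusted criterion. That gene was *Ptf1a*, the factor that drives enzyme genes, at 18.5 and 12.1 in saline and 6.20 and 4.46 in FAEE-SAP, a change of −1.49 beside −1.81 in WT. *Bhlha15*, which encodes MIST1 and shapes the secretory apparatus, was at 31.6 and 14.5 against 17.3 and 15.1, so that the groups overlapped. Its change was −0.40 where WT had −3.47 (difference 3.03, unadjusted *P* = 0.00157, adjusted *P* = 0.166), and it turned to 0.22 as deposited. *Rbpjl*, the partner of PTF1A, was at 23.2 and 6.74 against 13.6 and 5.43, a change of −0.54 that turned to 0.08 as deposited. *Nr5a2* changed by 0.27. *Xbp1*, the factor of the unfolded protein response, was at 56.9 and 37.3 against 81.2 and 53.8.

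The machinery of secretion moved little. Of 34 genes of ER chaperones, ER-associated degradation and stress sensors 0 were higher and 2 lower by the unadjusted criterion, with a median of −0.17. The 2 were *Pdia2*, a protein disulfide isomerase of acinar cells, at 781 and 659 in saline and 373 and 332 in FAEE-SAP, and *Derl3*, a subunit of the degradation channel, at 22.1 and 11.2 against 7.09 and 8.11. *Hspa5*, the chaperone BiP, was at 65.7 and 50 against 44.1 and 52.6, a change of −0.25 that turned to 0.37 as deposited. In WT it was 1.84, and the difference of −2.13 had an unadjusted *P* of 0.0227. In the zymogen granule list of 21 genes 1 was lower and 0 higher, with a median of −0.23 (−0.094 without FAEE-SAP replicate 1). It was *Serpini2*, pancpin, at 722 and 346 against 271 and 206, a change of −1.08 where WT had −4.09 (difference 2.98, adjusted *P* = 0.0999). *Sycn*, syncollin of the granule membrane, was at 5435 and 4472 against 3043 and 2210.0. The 54 genes of translocon, glycosylation and vesicle coats had a median of −0.10 and 0 past the criterion, and the 21 genes of the integrated stress response a median of −0.24 and 0 past it. The last median was 0.17 without FAEE-SAP replicate 2, and that of the ER genes 0.006 without saline replicate 1. Among 19 amino acid transporters the median was −0.04 and 1 was lower, *Slc38a5*, a glutamine transporter of acinar cells. It was at 16.5 and 13.6 in saline and 5.06 and 5.26 in FAEE-SAP, a change of −1.52 where WT had −4.23 (difference 2.64, adjusted *P* = 0.0579). The 19 genes of serine, transsulfuration and creatine synthesis had a median of −0.33 in cKO, which ran from −0.77 without saline replicate 2 to −0.14 without FAEE-SAP replicate 2 and was 0.28 as deposited. In WT the median was −1.77 and 8 were called lower (3.86% of all genes tested in WT were). For 7 of 21 the cKO change was the higher one at an unadjusted *P* below 0.05 (6.17% of all genes).

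Duct and metaplasia markers were higher in part. Of 25 tested 0 entered only through FAEE-SAP. By the unadjusted criterion 6 were higher (99 of all 8515 such genes were) and 0 lower (73 were), with a median of 0.53 (0.34 without saline replicate 2). The 5 defining duct markers summed to 31.6 and 11.4 in saline and 46.1 and 43.7 in FAEE-SAP. *Krt20*, a keratin of injured duct and of gut epithelium, was at 0.867 and 0 in saline and 3.82 and 3.13 in FAEE-SAP, and the saline library with a value was the one with intestinal transcripts, whose part was not tested. The WT change in *Krt20* was 7.68. *Krt8*, a keratin of simple epithelia, was at 31.0 and 35.4 against 43.1 and 58.7, a change of 0.60 where WT had 1.60 (difference −1.03, unadjusted *P* = 0.00904). Its partner *Krt18* was at 45.2 and 48.2 against 56.8 and 79.9, and the duct keratin *Krt19* at 5.03 and 3.19 against 6.28 and 5.63. *Clu*, clusterin, was at 104 and 91.7 against 233 and 350. *Cldn4*, a tight junction protein, was at 0.563 and 0.315 against 1.09 and 2.09. It was the only one of 23 junction genes past the criterion, and the median of these genes was −0.03 in cKO and 0.87 in WT, where 1 that entered only through FAEE-SAP is left out. It entered only through FAEE-SAP. Leaving out 1 junction gene that entered only through WT FAEE-SAP, the cKO change was the lower one at an unadjusted *P* below 0.05 for 11 of 23 and the higher for 1. Of all 10470 genes left in this way it was the lower one for 625 and the higher for 683.

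Stress lists with medians above 0 in WT had medians near 0 in cKO. The 16 p53 targets had a median of −0.06, with 0 genes past the unadjusted criterion in cKO. In WT 2 of 15 were called higher, with a median of 0.92, when 7 that entered only through FAEE-SAP were left out. Leaving out 3 that entered only through WT FAEE-SAP, the cKO change was the lower one at an unadjusted *P* below 0.05 for 7 of 19 and the higher for 0. Of all 10470 genes left in this way it was the lower one for 625 and the higher for 683. Over all 22 it was the lower one for 9, and for 5 without saline replicate 1. The 20 genes of the NF-kB and TNF pathway had a median of 0.15 and 0 past the criterion, beside 0.51 and 4 of 25 called higher in WT without 6 that entered only through FAEE-SAP. The 21 cytosolic heat shock genes had a median of −0.12, beside 0.16 in WT over the 19 that did not enter only through FAEE-SAP. *Hspb1*, the small heat shock protein HSP27, was at 5.65 and 22.6 in saline and 11.4 and 16.6 in FAEE-SAP, so the groups overlapped. Its change of 0.28 turned to −0.71 without saline replicate 1, and WT had 3.53 (difference −3.28, unadjusted *P* = 0.00479). Of 27 antioxidant and metallothionein genes 2 were higher and 1 lower, with a median of 0.11. *Hmox1*, heme oxygenase 1, was at 1.23 and 1.83 against 4.80 and 4.99, a change of 1.64 beside 2.10 in WT.

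Genes of metabolism and calcium handling, the processes the study was built around, showed small shifts. Of 24 glycolysis and glucose transport genes 2 entered only through FAEE-SAP. Of the other 22, 15 lay above 0 (48.5% of all 9423 genes did, such genes included). By the unadjusted criterion 0 passed in either direction. Their median was 0.13, beside −0.05 over the 8515 genes left by the same exclusion. In WT the median was 0.20 over 22 genes, 6 others left out for the same reason. Over all 24 in cKO the median was 0.18, and 0.072 without saline replicate 1. *Ldha*, lactate dehydrogenase A, was at 6.78 and 6.52 in saline and 12.7 and 9.13 in FAEE-SAP, a change of 0.69 (adjusted *P* = 0.474) that equaled the WT value of 0.69. *Eno1*, enolase, changed by 0.65. *Slc2a1*, the glucose transporter GLUT1, was at 0.70 and 0.947 against 0.919 and 1.31, with overlapping groups. For 1 of 28 glycolysis genes the genotype difference had an unadjusted *P* below 0.05. Of 31 genes of calcium release, entry and clearance 0 passed in either direction, the median was −0.01, and the changes ran from −0.45 to 0.48. The 13 secretagogue receptor and Gq genes had a median of −0.03 and 0 past the criterion. Ribosomal protein genes lay below 0 for 55 of 58, with a median of −0.28, and respiratory chain genes for 35 of 43, with a median of −0.23. As deposited these medians were 0.35 and 0.38, so their sign was set by the scaling. Without saline replicate 1, the library with intestinal transcripts, they were −0.16 and −0.0077. Of 27 fatty acid response and lipid droplet genes 1 was higher. It was *Plin2*, a lipid droplet coat protein, at 1.97 and 1.28 in saline and 5.50 and 2.99 in FAEE-SAP, a change of 1.30 beside 2.73 in WT. Of 35 autophagy and lysosome genes 2 were higher, *Ctsl*, cathepsin L, at 56.1 and 92.5 against 144 and 179, and *Lgmn*, legumain, at 3.27 and 3.11 against 13.6 and 9.76.

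**Figure D5:**
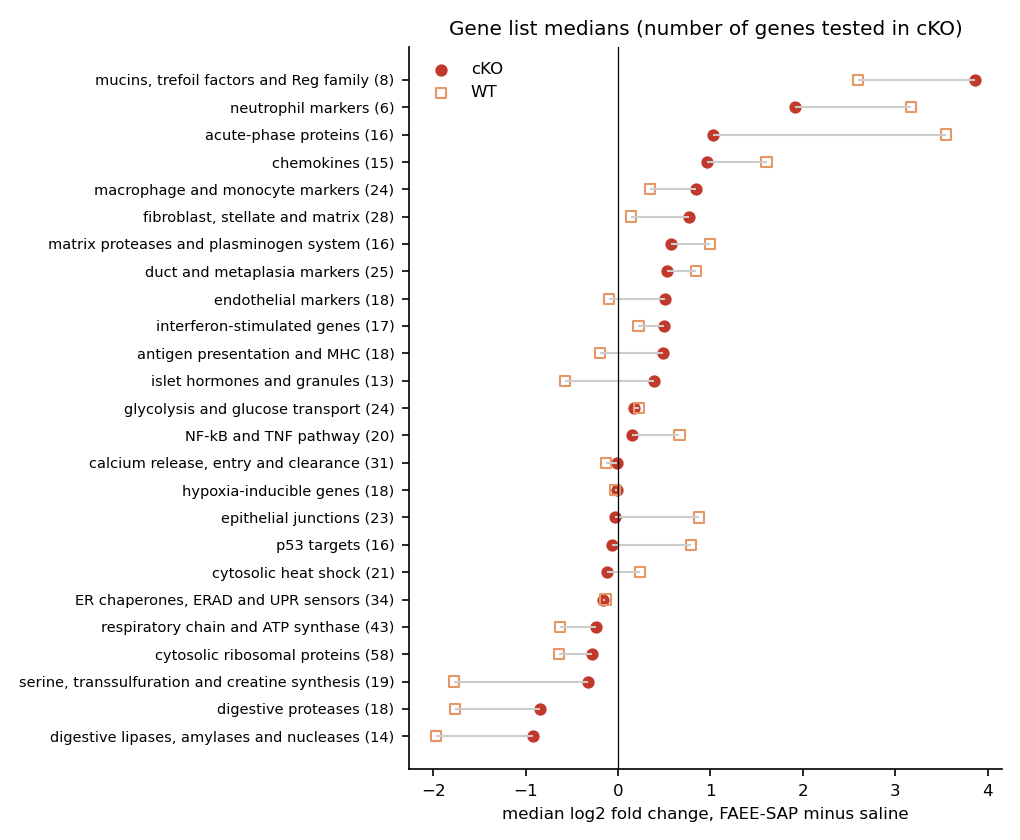
Median log2 fold change of FAEE-SAP over saline (horizontal axis) for 25 gene lists, 1 row per list, in cKO (filled circles) and WT (open squares), over the genes tested in each, those that entered only through FAEE-SAP included. The Reg and mucin list stands at 3.86 in cKO and 2.60 in WT, acute-phase genes at 1.03 and 3.55, and digestive proteases at −0.84 and −1.77.

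Lists of other cell types come next. Of all 8515 genes that did not enter only through FAEE-SAP, 99 were higher and 73 lower by the unadjusted criterion. T, B and plasma cell genes had a median of 0.47, with 2 of 21 higher by the unadjusted criterion when 1 gene that entered only through FAEE-SAP was left out, and the median was −0.07 without FAEE-SAP replicate 1 and 1.08 without replicate 2. Antigen presentation and MHC genes had a median of 0.48 (0.11 and 1.01 without these libraries), with 0 of 18 past the criterion. *Igha*, the heavy chain of IgA, was at 4.97 and 7.58 in saline and 15.5 and 16.2 in FAEE-SAP, a change of 1.35 where WT had 0.00 (difference 1.32, unadjusted *P* = 0.0042). Transcripts of immunoglobulin variable segments summed to 145 and 172 in saline and 311 and 157 in FAEE-SAP, so the second FAEE-SAP library lay between the saline libraries. Without genes that entered only through FAEE-SAP, endothelial genes had a median of 0.50, with 1 of 15 higher (over all 18 the median was 0.51, and 0.26 without FAEE-SAP replicate 1), and interferon-stimulated genes one of 0.50, with 2 of 11 higher. *Kdr*, the VEGF receptor 2 gene, changed by 0.62 where WT had −0.48. Islet genes had a median of 0.39 in cKO (0.19 without saline replicate 2), with 1 of 13 higher. In WT the median was −0.70 over 13, without 1 that entered only through FAEE-SAP. For 6 of 15 the cKO change was the higher one at an unadjusted *P* below 0.05 (6.17% of all genes) and for 1 the lower (6.39%). Islet markers summed to 321 and 257 in saline and 352 and 365 in FAEE-SAP.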

How the data were processed

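RNA-Seq was analyzed in 8 pancreas libraries, 2 each from WT and *Pfkfb3* cKO mice given saline or FAEE-SAP. The authors filtered paired reads with fastp, mapped them to GRCm38.p6 with CLC Genomics Workbench and deposited 1 table per library with RPKM values per gene. How multiply mapped reads were counted was not given in the sources used here. Reads recovered from the deposited values came to 22.84 to 37.57 M (1e6) per library, and 84.5% to 86.6% of values under 20 reads were whole within 0.1 read. Gene symbols of the tables were matched to GENCODE M21 for 46325 of 48709 genes (95.1%).

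RPKM were scaled by median of ratios within each comparison, genes at 0.5 RPKM or more in at least 2 libraries of a comparison were kept, and log2(scaled RPKM + 0.1) was fitted with limma 3.58.1 in R 4.3.3 (trended variance, Benjamini-Hochberg adjustment). On this scale changes of low genes are understated. The difference between genotypes was an interaction term over all 8 libraries on a common scale. The tests were checked on simulated data.

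Genes named were the called genes, *Pfkfb3*, and marked members of 49 gene lists. *Reg3d*, *Amy2b*, *Ccl6*, *Cxcl14*, *Krt20*, *Lgmn*, *Pf4* and *Ppbp*, and the genes of the closing observations, were chosen after their values were seen. The comparison, the lists and the tests were chosen with earlier results of these data known. Alternatives were other scalings, filters, pseudocounts, a replicate block, a weighted model on recovered reads (chosen after seeing the data) and leaving out each library.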

Additional observations from a re-analysis of the deposited data

Results flagged for a closer look

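The FAEE-SAP change differed between cKO and WT for 8 genes in the limma interaction test after adjustment over 11133 genes, each with 2 libraries per group. *Clps* had a log2 difference, cKO minus WT, of 2.86, with the FAEE-SAP libraries of cKO at 11085 and 11441 and those of WT at 1488 and 1313. *Gal* had a difference of 2.44, with −1.06 in cKO and −3.54 in WT. *Tmed6* had a difference of 1.91, with −0.93 and −2.87. *Reg2* had a difference of 2.34, with 4.98 and 2.60. *Igkv4-68* had a difference of 3.11, with 1.76 and −1.37. *Saa3* had a difference of −6.17, with −1.69 and 4.43. For *Fpr1* the difference was −4.60 and for *Fut2* −4.17, and neither reached the level for testing in cKO alone, so both entered only through WT FAEE-SAP. Without cKO FAEE-SAP replicate 1, and likewise without cKO FAEE-SAP replicate 2 or WT saline replicate 1, 0 genes passed, with 1036, 1289 and 1097 at an unadjusted *P* below 0.05. Only *Clps* was still called without cKO saline replicate 1, the library with intestinal transcripts.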

How the results depend on the processing

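The 5 calls in cKO became 15 with all 8 libraries in 1 model, 15 with the values as deposited, 0 without the RPKM filter (19024 genes, 1438 at an unadjusted *P* below 0.05), 280 without adjustment, and 0 to 6 when 1 library was left out. They stayed between 4 and 6 under the other settings. *Reg3b* and *Reg2* were called in 13 of 15 alternatives, *Reg3a* in 12 of 15, *Lrg1* in 11 of 15 and *Car9* in 7 of 13, all above 0. With a replicate block the count was 52, 40 higher and 12 lower, but the numbers were not stated to pair the libraries, and the deviations of same-numbered libraries correlated at 0.45 over only 2 pairs. The block gave 442 calls in WT and 0 for the difference (1314 at an unadjusted *P* below 0.05).

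The 755 WT calls became 259 without the filter, 506 with a pseudocount of 1, 7270 as deposited (7184 higher, 86 lower), 1349 without adjustment and 97 to 491 with 1 library left out. The 8 genes of the difference became 35 at an RPKM minimum of 2, 0 without the filter (1981 unadjusted), 3 without the variance trend, 1 and 24 with pseudocounts of 0.01 and 1, 25 after quantile normalization, 14 with the trimmed mean, 791 as deposited, 782 without adjustment and 0 to 4 with 1 library left out. Apart from fewer or more genes tested, the cause was not tested.

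Of 1304 alternative values for 91 genes 16 changed sign, in 8 genes. As deposited, *Ctrb1* was 0.31, *Bhlha15* 0.22, *Rbpjl* 0.081 and *Hspa5* 0.37. After quantile normalization *Ctrb1* was 0.16 and *Cpa1* 0.076. *Adgre1* was −0.0013 in the model of 8 libraries and −0.0016 without the filter. With 1 library left out, *Adgre1* ran from −0.068 to 0.19, *Hp* from −0.54 to 1.85, *Bhlha15* from −0.95 to 0.16, *Rbpjl* from −1.41 to 0.35 and *Hspb1* from −0.71 to 1.28. Of 539 list medians 104 moved by more than the spread between libraries. With 1 library left out 20 of the 49 list medians changed sign, 12 of these within 0.1 of 0 to begin with.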

Other observations

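The genes of these paragraphs were chosen after their values were seen, and none passed adjustment. The first 6 were lower in cKO FAEE-SAP by the unadjusted criterion, and 3 of them, *Alox15*, *Prg4* and *Ighv11-2*, reached the level for testing only through saline, so the filter set their direction. *Alox15*, a lipoxygenase of resident peritoneal macrophages, was at 1.69 and 0.965 scaled RPKM in saline and 0.0704 and 0.0108 in FAEE-SAP, which is −3.33 ± 0.40 (SE) on the log2 scale, at an adjusted *P* of 0.169 by limma. It was already low in WT, with 0.138 and 0.568 in saline and 0.158 and 0.0257 in FAEE-SAP on the common scale. *Prg4*, lubricin, was at 2.16 and 1.20 against 0.370 and 0.260, and its change of −2.06 differed from that in WT by −2.63 (unadjusted *P* = 0.00467, adjusted *P* = 0.228). *Retnla* was at 3.99 and 1.47 against 0.914 and 0.354, and *Upk3b*, a mesothelial membrane protein, at 2.07 and 1.15 against 0.823 and 0.285. The immunoglobulin segment *Ighv11-2*, used by B-1 cells, was at 2.74 and 1.49 against 0.250 and 0.172. *Igkv4-91* was at 11.9 and 2.13 against 1.45 and 0.518. The 3 defining mesothelial markers summed to 3.77 and 2.57 in saline and 2.61 and 1.17 in FAEE-SAP.

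Some genes of plasma proteins made mainly in the liver had low values. *Fgl1* was at 0.0231 and 0.0775 in saline and 0.591 and 0.442 in FAEE-SAP, *F2*, prothrombin, at 0.208 and 0.0831 against 0.489 and 0.571, and *Lbp*, which binds endotoxin, at 0.240 and 0.545 against 1.55 and 0.762. These 3 entered only through FAEE-SAP and so had to lie above saline in the values as deposited. *Itih4* was at 0.997 and 1.28 against 4.14 and 2.54, and its change of 1.44 differed from that in WT by 2.24 (unadjusted *P* = 0.000858, adjusted *P* = 0.151). *Itih2*, of the same family, was lower, with a log2 fold change of −1.03 (unadjusted *P* = 0.0056). Albumin, the defining liver transcript, was at 2.22 and 0.286 in cKO saline and 0.237 and 0.0991 in cKO FAEE-SAP on the common scale.

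Further lists were read beside the counts over all genes. Of the 8515 that did not enter only through FAEE-SAP, 99 were higher and 73 lower by the unadjusted criterion. Ductal fluid and bicarbonate genes had a median of 0.01 with 1 of 10 lower, *Aqp8*, an acinar water channel, at 2.54 and 2.80 against 1.51 and 0.402. Genes of EGF receptors and their ligands had a median of 0.07 with 1 of 8 lower, *Egf*, at 3.89 and 3.63 against 1.75 and 1.67. Immediate early factors had a median of 0.13 with 1 of 19 lower, and, without genes that entered only through FAEE-SAP, laminin and integrin genes 0.34 with 2 of 14 higher, complement 0.19 with 1 of 18 higher and cell cycle genes 0.23 with 0 of 8 past it. Over all 20 genes the complement median was 0.35, and −0.06 without FAEE-SAP replicate 1, and that of immediate early factors −0.38 without saline replicate 1. Ethanol and aldehyde metabolism genes had a median of −0.40, with 1 of 13 higher, which entered only through FAEE-SAP, and 1 lower, and prostaglandin and leukotriene genes −0.06 with 1 of 10 lower, which was *Alox15*, given above. Clock genes (−0.03), MAPK feedback genes (−0.01), adipocyte genes (−0.21), lymph node genes (0.41) and red blood cell genes (0.11) had 0 past it. The red blood cell median was 1.22 without saline replicate 1 and −1.0 without saline replicate 2. The lymph node median was −0.20 without FAEE-SAP replicate 1, and the adipocyte median 0.20 without FAEE-SAP replicate 2. Of 106 immunoglobulin variable segments tested 16 entered only through FAEE-SAP. Of the other 90, 63 lay above 0, and 9 were higher and 2 lower by the unadjusted criterion, with a median of 0.41. Of the 8515 genes left by the same exclusion 99 were higher and 73 lower, and their median was −0.05. Over all 9423 genes, such genes included, 48.5% lay above 0. The summed level of the segments, given above, was above saline in FAEE-SAP replicate 1 and between the saline libraries in replicate 2. In WT the median was −0.57 over 84 segments that did not enter only through FAEE-SAP.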
